A study of Rattus norvegicus with 12 samples.

Results

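The anterior pituitary of DES-treated Ept1 rats was compared with that of DES-treated Ept9 rats. Diethylstilbestrol (DES) is a synthetic estrogen that drives growth of the pituitary gland in rats of the ACI strain. The comparison took all 3 arrays whose titles name Ept1 and all 3 whose titles name Ept9, that is 6 of the 12 arrays in the series. The other 6 arrays, 3 each of the lines Ept2 and Ept6, were used only to place the differences.

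Both lines are congenic: a piece of the genome of the Copenhagen (COP) strain was bred onto the ACI genetic background, on rat chromosome 6 in Ept1 and on rat chromosome 10 in Ept9. Ept2 and Ept6 carry theirs on chromosome 3. All animals were males that received an implant with 5 mg of DES under the skin at 9 weeks of age, an injection of BrdU at 50 mg/kg 4 h before the end, and were killed at 21 weeks after 12 weeks of treatment. BrdU is a thymidine analog that marks cells making DNA. The RNA on all 6 arrays thus came from glands exposed to DES and BrdU, no untreated gland and no gland of the plain ACI strain was among the arrays analysed here, and a difference between the lines therefore says nothing on its own about which line departs from ACI. The sources used here do not give the borders of the COP segments. The labels conflict on replication, one giving 3 biological replicates per line and another 3 males with fewer independent replicates, so that the p-values may measure a spread that is in part technical.

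The anterior pituitary is made up of hormone cells (lactotrophs making prolactin, somatotrophs making growth hormone, gonadotrophs, thyrotrophs and corticotrophs) together with folliculostellate cells, blood vessels, stroma and macrophages. Estrogens act on lactotrophs in particular, which multiply and secrete prolactin under long treatment. In a congenic rat, a gene inside the introgressed segment may differ in level because its own DNA is of the other strain, and genes elsewhere carry the same alleles in both lines apart from any remnant of the donor genome.

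Of 31042 probe sets tested, 211 (0.68%) differed between the lines at a limma adjusted p under 0.05, 67 (0.216%) with a higher signal in Ept1 and 144 (0.464%) with a higher signal in Ept9. Values are given as array signals on a linear scale, and differences as the Ept1 mean minus the Ept9 mean of log2(signal + 16), with the standard error (SE) of the model. On that scale the median size of a called difference was 1.63-fold, and 52 probe sets differed by 2-fold or more (16 higher in Ept1, 36 higher in Ept9). The 3 arrays of one line lay wholly above those of the other in all 211, which a choice by small p-values on the same arrays nearly fixes, and in 16.2% of all probe sets tested. Of the called probe sets, 163 have 1 gene symbol and stand for 156 genes.

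The number of calls depends on how the spread between arrays was estimated. In the model used here the expected variance follows the signal level, since the median variance within lines ran from 0.00508 in the brightest 10% of the probe sets to 0.387 among dim ones. With 1 common variance for all probe sets 4 were called, with the dimmest 40% left out and a common variance 29, and with an unmoderated linear model 4, while 3446 probe sets had an unadjusted p under 0.05 in the main model. Leaving out 1 array gave from 89 calls (without the 3rd Ept9 array) to 113 (without the 3rd Ept1 array). All 211 differences kept their sign in each of these fits in which they were tested, which was fixed in advance. A change of variance or filter leaves a difference as it is, and leaving out 1 array cannot reverse lines that do not overlap. *Ddx5* and *Serpinf1* were still called with a common variance.

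The genes of the most abundant pituitary hormones were close to equal in the lines. The signal of *Prl*, the prolactin gene, was 44086 ± 1862 (SD, n = 3) in Ept1 and 44524 ± 1569 (SD, n = 3) in Ept9, a log2 difference of -0.01 ± 0.05 (SE). *Gh1*, which encodes growth hormone, read 32769 ± 2266 (SD, n = 3) against 32970 ± 1278 (SD, n = 3). *Cga*, the shared subunit of the glycoprotein hormones, differed by 0.00 ± 0.07 (SE) on the log2 scale. *Lhb*, which encodes the beta subunit of luteinizing hormone, read 261, 273 and 236 in Ept1 and 335, 303 and 342 in Ept9, without overlap and without a call (-0.33 ± 0.13 (SE), adjusted p = 0.383). The hormone gene *Pomc* was called and is described with chromosome 6. The posterior lobe hormones stayed dim, with mean signals of *Avp* of 19.1 and 12.6 and of *Oxt* of 47.6 and 26.3, below the signal of 65.1 that marks the 40th percentile of the probe sets. RNA quality read from the 3' and 5' probe sets of *Gapdh* did not separate the lines (log2 difference 0.25 ± 0.01 (SD, n = 3) in Ept1 and 0.21 ± 0.06 (SD, n = 3) in Ept9, exact two-sided permutation p = 0.4, where 20 partitions allow no p under 0.1).

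Chromosome 10, which carries the COP segment of Ept9, held the most calls. Of the 1217 tested genes on it 38 were called, or 3.12%, beside 156 of 14204 (1.1%) over all chromosomes and 111 of 12384 (0.896%) over the chromosomes other than 6 and 10. These 38 genes were 24.4% (38 of 156, exact 95% binomial interval 17.9 to 31.9%, counting error only) of the called genes, while the chromosome holds 8.57% of the tested genes. They went both ways, with 18 higher in Ept1 and 20 higher in Ept9, whereas the called genes on the other chromosomes apart from 6 were mostly higher in Ept9 (25 and 86). The share of called genes on chromosome 10 fell to 17.3% with the dimmest 40% of probe sets left out and to 15.2% with the dimmest 60% left out, since more genes elsewhere were called. On chromosome 6, which carries the Ept1 segment, 7 of 603 genes were called (1.16%), or 4.49% of the called genes beside 4.25% of the tested genes. Of these, 6 were higher in Ept1 and 1 in Ept9.

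**Figure D1:**
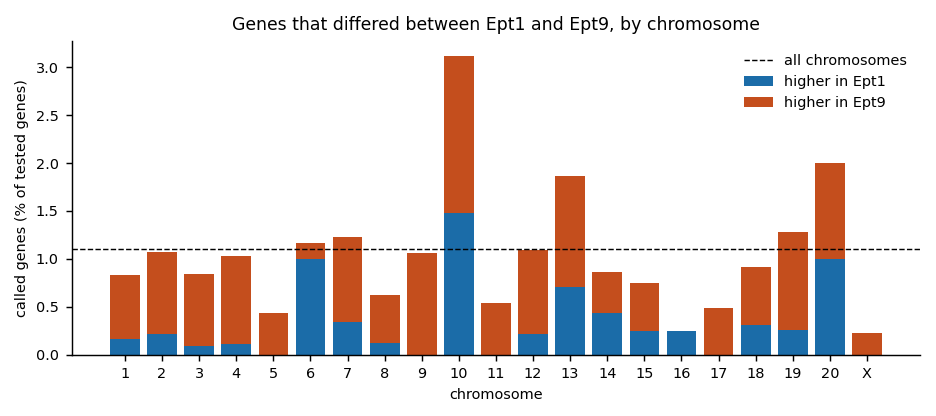
Called genes as a percentage of the genes tested on each chromosome (y axis) by chromosome (x axis), with the part higher in Ept1 in blue, the part higher in Ept9 in orange, and a dashed line at the value over all chromosomes (1.1%). Chromosome 10 stands at 3.12%, followed by chromosome 20 at 2.01%, and chromosome 6 lies near the line at 1.16%.

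The calls on chromosome 10 were not spread along its whole length. Numbering the tested genes in their order along the chromosome in the GRCr8 assembly, the first called gene was number 359 (*Hist3h2ba*) and the last number 1213 (*Fn3k*) of 1217. Dividing the genes of the chromosome in their order into 5 equal parts, 0, 6, 8, 16 and 8 were called. On chromosome 6 the 7 called genes ran from number 45 (*Cdkl4*) to number 523 (*Bcl11b*) of 603, with 2, 4, 0, 0 and 1 in its 5 parts. The order gives no distances, and whether a called gene lies within a COP segment was not tested.

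**Figure D2:**
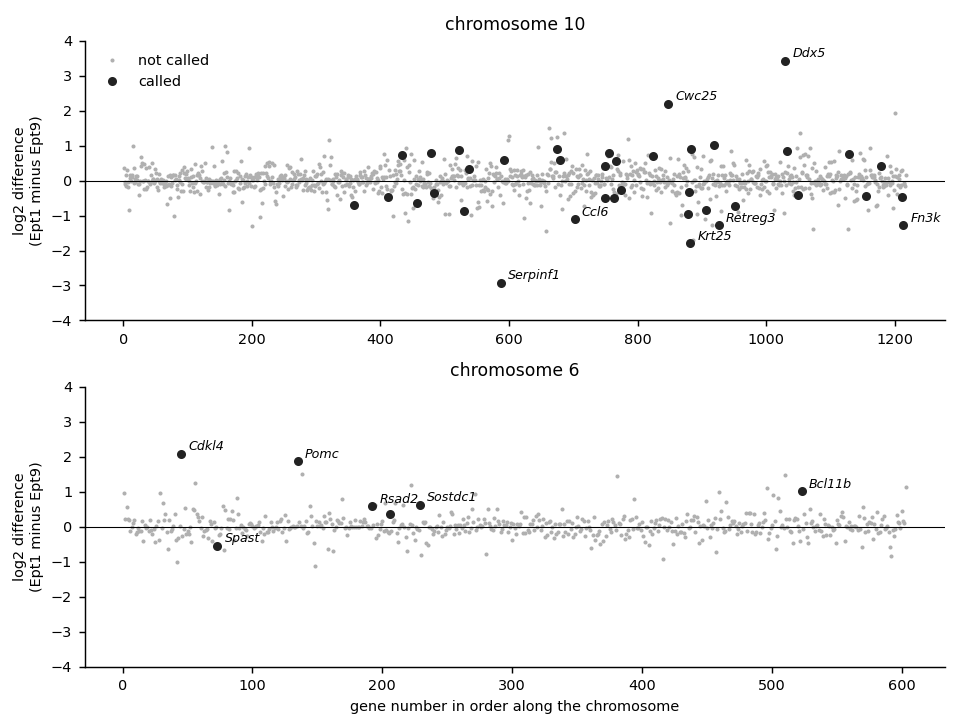
Difference in mean log2(signal + 16), Ept1 minus Ept9 (y axis), for the brightest probe set of each tested gene or its called probe set, by the number of the gene in order along chromosome 10 (upper panel) and chromosome 6 (lower panel). Black points are called genes and grey points are the others. No gene before number 359 of chromosome 10 was called, and the called genes beyond it lie on both sides of 0.

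*Serpinf1* and *Ddx5* on chromosome 10 gave the smallest adjusted p-values of the comparison. *Serpinf1* encodes pigment epithelium-derived factor, a secreted protein of the serpin family that restrains blood vessel growth. Its signals were 1432, 1601 and 1193 in Ept1 and 10917, 10808 and 10454 in Ept9, a log2 difference of -2.92 ± 0.09 (SE, adjusted p = 6.98e-08) or 7.59-fold. Every Ept9 array was far above every Ept1 array. The 3 arrays of a line differed little, and Ept2 (mean 1670) and Ept6 (mean 3366) both lay below Ept9.

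*Ddx5*, an RNA helicase that acts in transcription and splicing, went the other way in 1 of its probe sets. Its signals there were 7558, 7927 and 7826 in Ept1 and 743, 623 and 753 in Ept9, a log2 difference of 3.43 ± 0.07 (SE, adjusted p = 3.83e-09) or 10.8-fold. The Ept2 and Ept6 means, 7772 and 7748, were at the level of Ept1, so that Ept9 stood alone. A second, brighter probe set of *Ddx5* read 8358 in Ept1 and 9183 in Ept9, a log2 difference of -0.14 with an adjusted p of 0.298, so that the probe sets disagree and the low reading in Ept9 comes from the first alone.

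Further genes of chromosome 10 were low in Ept9. *Cwc25*, a protein of the spliceosome, read 416, 383 and 423 in Ept1 against 57.5, 94.5 and 80.1 in Ept9, a log2 difference of 2.20 ± 0.20 (SE, adjusted p = 0.000624). Its groups were widely apart, and Ept2 (406) and Ept6 (435) lay with Ept1. *Stat3*, a transcription factor downstream of cytokine receptors, was called in 1 probe set, with signals of 2758, 2039 and 2892 in Ept1 and 1200, 1186 and 1381 in Ept9 (log2 difference 1.01 ± 0.12 (SE), adjusted p = 0.00292). A dimmer probe set of *Stat3* gave -0.22, adjusted p = 0.435, in the opposite direction. *Cxcl16*, a chemokine also found as a membrane-bound form, read 1132, 1194 and 1157 against 653, 672 and 546 (0.89 ± 0.09 (SE), adjusted p = 0.00124). *Nfe2l1*, a transcription factor for proteasome and oxidative stress genes, was higher in Ept1 by 0.70 ± 0.08 (SE) in its called probe set, while its other probe sets gave 0.39 and -0.26 without a call. Both probe sets of *Arl16*, a small GTPase, were called (0.99 and 0.41), as were both of *C10h17orf58* (0.85 and 0.63). The *Arl16* probe set with 0.41 was called in only 1 of the 6 fits that left out 1 array. *Krt10*, *Msi2*, *Sat2*, *Sco1*, *Myo1d*, *Slc43a2*, *Mmd*, *Srsf1*, *C1qbp*, *C10h17orf75* and *LOC100912002* completed the genes higher in Ept1, with log2 differences from 0.34 (*C1qbp*) to 0.90 (*Krt10*). When 1 array was left out, *C10h17orf75*, *Sat2*, *Myo1d* and *Slc43a2* were called in 0 of 6 fits, *Krt10*, *Msi2*, *Sco1*, *Srsf1* and *C1qbp* in 1 of 6 and *Mmd* in 3 of 6. The brightest probe set of *Msi2* gave -0.02.

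Among the chromosome 10 genes higher in Ept9, *Krt25*, a keratin of hair follicles, read 254, 338 and 425 in Ept1 and 1246, 1279 and 1067 in Ept9 (log2 difference -1.80 ± 0.16 (SE), adjusted p = 0.000508). *Fn3k*, which encodes fructosamine-3-kinase and repairs glycated proteins, read 1193, 1117 and 1329 against 2971, 2864 and 3069 (-1.28 ± 0.07 (SE), adjusted p = 2.79e-05). No array of one line reached into the range of the other in either gene. *Retreg3*, which takes part in the turnover of the endoplasmic reticulum, differed by -1.28 ± 0.14 (SE), and *Ccl6*, a chemokine of macrophages, by -1.11 ± 0.16 (SE). A dim second probe set of *Retreg3* gave 1.06 in the opposite direction without a call. *Igfbp4*, which binds insulin-like growth factors, read 261, 341 and 361 against 570, 635 and 690 (-0.95 ± 0.14 (SE), adjusted p = 0.0102). *Nog* encodes noggin, an extracellular inhibitor of BMP signals, and read 826, 791 and 861 in Ept1 and 1179, 1134 and 1202 in Ept9 (-0.50 ± 0.07 (SE), adjusted p = 0.0104). *Igfbp4* lost its call without the 2nd or the 3rd Ept9 array, and *Nog* without the 1st or the 3rd. Both probe sets of *Gaa*, the lysosomal acid alpha-glucosidase, were called (-0.48 and -0.43), and the muscle enolase *Eno3* differed by -0.87 ± 0.08 (SE). The *Gaa* probe set with -0.43 was called in only 2 of the 6 fits that left out 1 array. *Dnajc7*, *Mpp3*, *Hist3h2ba*, *Pfas*, *Dynll2*, *Ttc19*, *Rab40b*, *Wipi1*, *Eif4a1*, *Smarce1* and *Nme2* were the other genes higher in Ept9, from -0.84 (*Dnajc7*) to -0.27 (*Nme2*). Of these, *Wipi1*, *Smarce1* and *Nme2* were called in 0 of the 6 fits that left out an array, *Mpp3*, *Pfas* and *Eif4a1* in 1 of 6 and *Ttc19* in 4 of 6.

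Ept2 and Ept6, whose arrays did not enter the calls, lay as a pooled mean with Ept1 in most called probe sets of chromosome 10. The mean of their 6 arrays was nearer the Ept1 mean than the Ept9 mean in 37 of the 41 called probe sets there (90.2%). For the 115 called probe sets on chromosomes other than 6 and 10 this held in 72 (62.6%), for the 48 called probe sets without a chromosome in 39 (81.2%), for all 211 in 150 (71.1%), and over all probe sets tested in 53.2%. The Ept9 mean was the highest or the lowest of the 4 line means in 40 of the 41 probe sets of chromosome 10, and the Ept1 mean in 21. Over all 211 called probe sets this was 177 for Ept9 and 125 for Ept1. On chromosomes other than 6 and 10 it was 89 and 72 of 115. A choice of probe sets by their difference between Ept1 and Ept9 favours such places for these lines. On chromosome 6, by contrast, the pooled mean of Ept2 and Ept6 was nearer Ept9 in 5 of 7 called probe sets. These are counts without a test, and the labels place no segment of Ept2 or Ept6 on chromosome 6 or 10. The pooled mean hides genes in which Ept2 and Ept6 split. *Dnajc7* had means of 997.5 in Ept1, 1029 in Ept2, 1679 in Ept6 and 1798 in Ept9, and was counted as nearer Ept1.

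**Figure D3:**
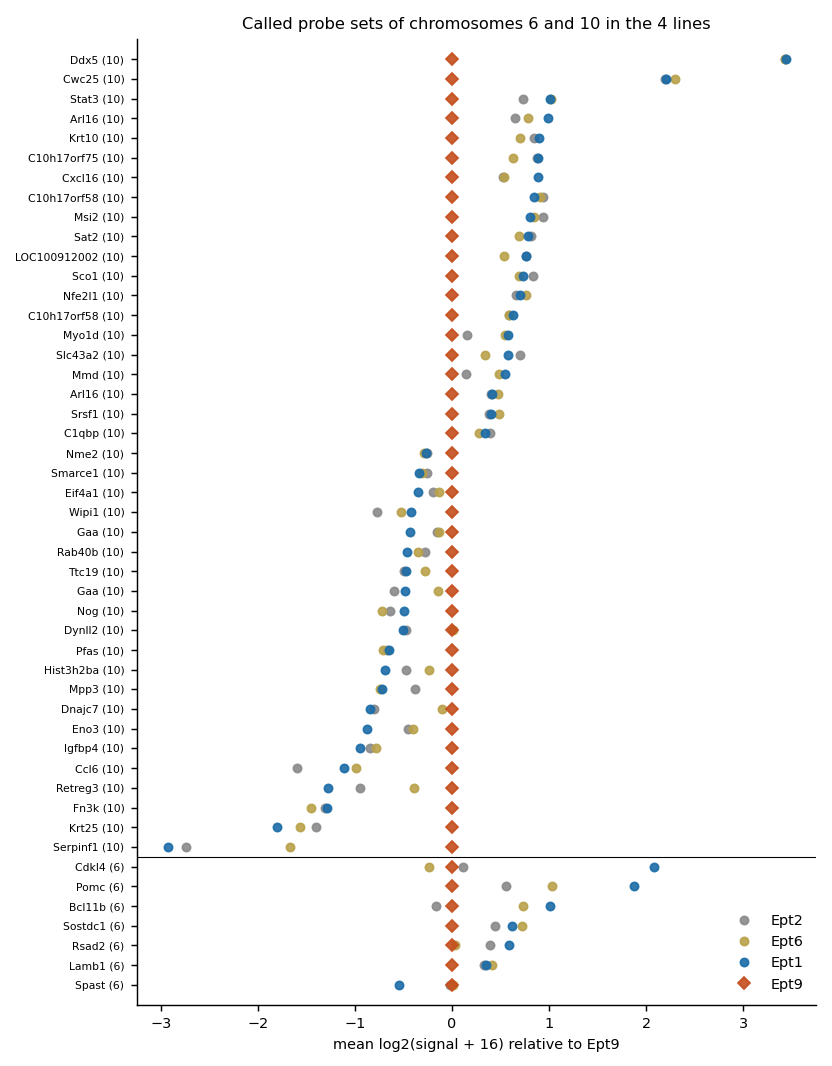
Mean log2(signal + 16) of each line relative to Ept9 (x axis) for the 41 called probe sets of chromosome 10 (above the line) and the 7 of chromosome 6 (under it), 1 row each with the gene symbol and chromosome (y axis). Each point is the mean of 3 arrays of Ept1 (blue), Ept2 (grey) or Ept6 (yellow), and diamonds at 0 mark Ept9. The pooled mean of Ept2 and Ept6, which is not drawn, is nearer Ept1 in 37 of 41 rows of chromosome 10. On chromosome 6 it is nearer Ept9 in 5 of 7 rows. In some rows, such as *Bcl11b*, the points of Ept2 and Ept6 split.

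On chromosome 6, *Cdkl4*, a protein kinase of the cyclin-dependent kinase-like family, read 368, 428 and 270 in Ept1 and 96.6, 63.8 and 56.2 in Ept9, a log2 difference of 2.08 ± 0.25 (SE, adjusted p = 0.00319). Ept2 (mean 79.2) and Ept6 (mean 60.9) were at the low level of Ept9, so that Ept1 alone was high. A dim second probe set gave 1.74 without a call. *Bcl11b*, a zinc finger transcription factor, read 1138, 1061 and 1098 against 567, 522 and 520 (1.01 ± 0.08 (SE), adjusted p = 0.000279). Its other probe sets differed by 0.81 and 0.86 in the same direction without passing, and Ept6 (913) lay near Ept1 while Ept2 (481) lay near Ept9. *Spast*, which severs microtubules, was the gene of chromosome 6 that was lower in Ept1, at 1013, 1058 and 1010 against 1494, 1493 and 1528 (-0.54 ± 0.06 (SE), adjusted p = 0.00272), and here too Ept2 (1483) and Ept6 (1517) lay at the Ept9 level. *Sostdc1*, a secreted inhibitor of BMP and Wnt signals, *Rsad2*, an interferon-induced antiviral protein, and *Lamb1*, a laminin chain, were higher in Ept1 by 0.62, 0.58 and 0.35. *Rsad2*, *Lamb1* and *Pomc* were called in none of the 6 fits that left out 1 array, and *Sostdc1* in 2 of 6.

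*Pomc*, the precursor of ACTH and the melanocyte-stimulating hormones, also lies on chromosome 6. Its probe set read 100.8, 151.9 and 93.8 in Ept1 and 23.2, 13.1 and 22.7 in Ept9 (log2 difference 1.87 ± 0.34 (SE), adjusted p = 0.0374). Both groups are dim for a hormone gene, and the probe set as a whole lies under the 40th percentile of signal, as do the Ept9 values. Ept2 read 90.7, 33.8 and 10.6, and Ept6 read 120.6, 84.2 and 11.5. Each of these lines thus ran from below the Ept9 values to near or within those of Ept1. Of the 5 measured genes in a list of corticotroph and melanotroph markers, *Pomc* was the only one called, beside 0.921% (131 of 14217) of all genes read by their brightest probe set. *Neurod1* (0.72, adjusted p = 0.142) and *Tbx19* (0.56, adjusted p = 0.427), transcription factors of these cells, had higher estimates in Ept1 without passing. In a whole gland fewer cells of a type and less RNA per cell cannot be told apart.

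**Figure D4:**
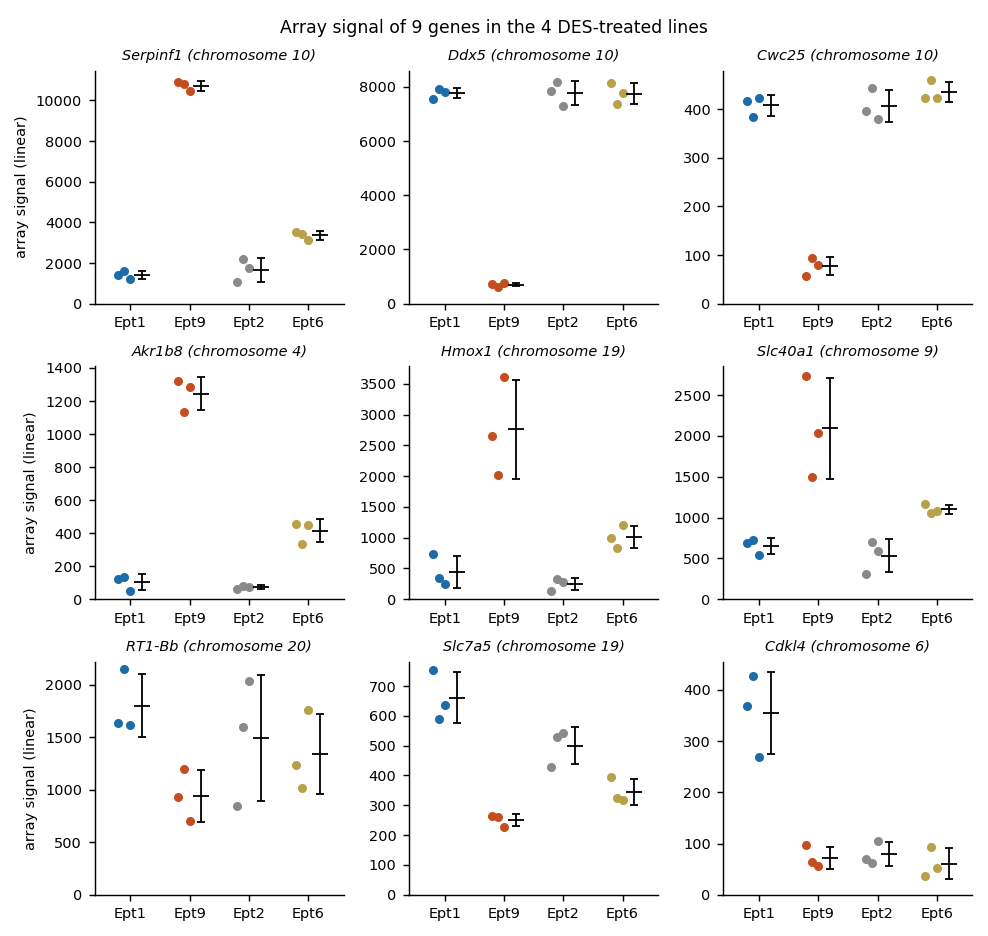
Array signal on a linear scale (y axes, each starting at 0) of 9 genes in the lines Ept1, Ept9, Ept2 and Ept6 (x axis). Points are single arrays, and the mean and SD of each line stand to their right. *Ddx5* is drawn from its called probe set. In *Serpinf1*, *Ddx5* and *Cwc25* Ept9 stands apart from the other 3 lines, in *Cdkl4* Ept1 does, and in *Akr1b8*, *Hmox1* and *Slc40a1* the Ept6 points lie between those of Ept1 and Ept9.

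Outside chromosomes 6 and 10, 3 genes of the antioxidant, heme and iron response were among those with the largest differences, all higher in Ept9. The transcription factor NRF2 switches on enzymes that detoxify aldehydes and quinones, and heme that enters a cell is split by heme oxygenase, whose iron leaves through ferroportin. *Akr1b8*, an aldo-keto reductase, read 125, 136 and 50.3 in Ept1 and 1322, 1131 and 1282 in Ept9, a log2 difference of -3.49 ± 0.26 (SE, adjusted p = 0.000265) or 11.2-fold. *Hmox1*, heme oxygenase 1, read 740, 345 and 254 against 2660, 2015 and 3613 (-2.69 ± 0.31 (SE), adjusted p = 0.00289). *Slc40a1*, which encodes the iron exporter ferroportin, was called in all 3 of its probe sets, with differences of -1.62, -1.35 and -1.15, and signals of 693, 729 and 546 against 2734, 1500 and 2041 in the first of them.

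In these genes no Ept1 array reached the range of Ept9, and Ept6 was intermediate (means of 415 for *Akr1b8*, 1014 for *Hmox1* and 1102 for *Slc40a1*) while Ept2 was low (72.8, 246 and 534). The first *Slc40a1* probe set, *Akr1b8* and *Hmox1* were called whichever array was left out. The probe set with a difference of -1.15 lost its call without the 3rd Ept9 array, and the one with -1.35 without the 1st or 3rd Ept9 or the 3rd Ept1 array. Over the 15 measured genes of the list of NRF2, heme and iron genes, 3 were called, all higher in Ept9 (beside 131 of 14217, 0.921%, of all genes in both directions), 13 of 15 estimates were lower in Ept1, and the median difference was -0.27 beside 0.01 over all genes. Other genes of the list did not pass: *Nqo1* differed by -0.47 (adjusted p = 0.22), *Txnrd1* by -0.23 (adjusted p = 0.274), *Gclc* by 0.04 and *Srxn1* by 0.00. *Gstp1* stood at -0.27 (adjusted p = 0.126) and the transferrin receptor *Tfrc* at -0.01.

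Markers of blood and of macrophages were read beside this group. None of the 5 measured erythroid genes was called, and all 5 estimates were lower in Ept1, with a median of -0.47. The groups did not overlap in 3 of the 5 (60%, beside 18.2% of all genes). The summed signal of the erythroid list was 15772 to 17715 in Ept1 and 18607 to 30021 in Ept9. *Hbb*, a hemoglobin chain, read 17139, 16517 and 15282 in Ept1 and 17963, 20142 and 28746 in Ept9, where the 3rd array was the highest. That array also had the highest *Hmox1* signal. *Hmox1* kept its call in the fit without it. The remaining Ept9 arrays also had a higher erythroid sum than every Ept1 array, and *Hbb* makes up most of that sum. In Ept2 the sum was 18739 to 19880 with a mean *Hmox1* signal of 246. In Ept6 it was 13400 to 14631 with a mean *Hmox1* signal of 1014. The part of blood content in these differences was not tested.

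*Gpnmb*, a glycoprotein of lipid-laden and phagocytic macrophages, read 1904, 2087 and 1772 in Ept1 and 4201, 2776 and 4283 in Ept9 (-0.94 ± 0.14 (SE), adjusted p = 0.0134), and lost its call in 4 of the 6 fits that left out 1 array. *Lgals3*, another gene of such cells, differed by -0.71 without passing (adjusted p = 0.0745). The macrophage genes *C1qa*, *C1qb*, *C1qc* and *Aif1* differed by -0.06, 0.10, 0.00 and -0.21, none called. *Cd68* read 446, 518 and 487 in Ept1 and 848, 568 and 679 in Ept9, without overlap and without a call (-0.50 ± 0.14 (SE), adjusted p = 0.169). Of the 17 genes of the list 10 estimates were higher in Ept9, beside 6874 of 14217 over all genes. The groups did not overlap in 6 (35.3%, beside 18.2% of all genes). The summed signal of the 17 macrophage and leukocyte genes overlapped (29535 to 31451 and 26984 to 32595). *Pf4*, a chemokine of platelets and macrophages, *Fcna*, the lectin ficolin A, and *Cfd*, complement factor D, were also higher in Ept9, by -1.15, -1.13 and -1.40. *Fcna* lost its call without the 3rd Ept9 array.

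*Cd74* and 2 MHC class II genes of the lists differed the other way, with higher signals in Ept1. These genes encode the surface molecules by which macrophages, dendritic cells and B cells present peptides to T cells, and *Cd74* encodes the invariant chain that escorts them. *Cd74* read 4774, 5617 and 4378 in Ept1 and 2750, 3289 and 2328 in Ept9, a log2 difference of 0.82 ± 0.12 (SE, adjusted p = 0.0105). *RT1-Bb*, a class II beta chain, read 1638, 2147 and 1616 against 928, 1198 and 702 (0.94 ± 0.17 (SE), adjusted p = 0.0327), and *RT1-Ba*, its alpha chain partner, 903, 844 and 767 against 624, 523 and 425 (0.67 ± 0.13 (SE), adjusted p = 0.0487). All 3 Ept1 arrays were above all 3 Ept9 arrays in each of these genes, while the Ept2 and Ept6 means lay between the lines. Single arrays of Ept2 spread from below the Ept9 mean to above the Ept1 mean in each gene. Their signals ran from 2615 to 5465 for *Cd74*, 849 to 2040 for *RT1-Bb* and 330 to 971.5 for *RT1-Ba*. The Ept6 arrays ran from 2882 to 5046, 1021 to 1764 and 480 to 909.5.

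*RT1-Da* (0.68 ± 0.13 (SE), adjusted p = 0.0521) and *RT1-Db1* (0.60 ± 0.17 (SE), adjusted p = 0.193) did not pass, though their groups did not overlap either. The other probe sets of *RT1-Ba* gave 0.14 (adjusted p = 0.872), 0.69 and 0.03, and that of *RT1-Bb* -0.36 at a dim signal, none called. The class II calls are fragile. *RT1-Ba* and *RT1-Bb* each kept theirs in 1 of the 6 fits with an array left out (*RT1-Ba* without the 1st Ept9 array, *RT1-Bb* without the 2nd), and *Cd74* in 3. Of the 12 measured antigen presentation genes 2 were called, both higher in Ept1 (beside 0.921% of all genes called in both directions), and the groups did not overlap in 7 (58.3%, beside 18.2% of all genes). The genes of the class I pathway gave *B2m* -0.12, *Tapbp* -0.14, *Tap1* 0.13 and *Psmb8* 0.14, none called. In the macrophage list *Csf1r* (0.39, adjusted p = 0.122) and *Ctss*, the protease that trims the invariant chain (0.42, adjusted p = 0.0977), had higher estimates in Ept1.

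The promoters of the class II genes are shown because *RT1-Ba*, *RT1-Bb* and *RT1-Da* share a known element there. The Y box is an inverted CCAAT box of class II promoters. It was searched as CTGATTGG on both strands, in windows from 250 bases before to 50 after the start of the gene, and is in capitals in the RefSeq windows of GRCr8. The reference is of the BN strain, and the alleles of these lines were not read.
RT1-Ba: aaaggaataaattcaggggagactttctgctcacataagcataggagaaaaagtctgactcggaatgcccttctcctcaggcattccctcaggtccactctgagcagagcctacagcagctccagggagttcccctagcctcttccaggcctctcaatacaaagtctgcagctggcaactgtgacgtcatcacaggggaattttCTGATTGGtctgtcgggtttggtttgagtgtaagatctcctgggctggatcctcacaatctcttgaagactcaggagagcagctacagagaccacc
RT1-Bb: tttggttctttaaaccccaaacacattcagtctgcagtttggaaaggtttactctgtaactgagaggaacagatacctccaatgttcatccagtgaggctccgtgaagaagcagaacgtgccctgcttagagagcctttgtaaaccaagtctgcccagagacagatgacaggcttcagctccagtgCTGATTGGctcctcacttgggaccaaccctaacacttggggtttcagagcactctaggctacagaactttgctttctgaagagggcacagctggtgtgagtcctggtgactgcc
RT1-Da: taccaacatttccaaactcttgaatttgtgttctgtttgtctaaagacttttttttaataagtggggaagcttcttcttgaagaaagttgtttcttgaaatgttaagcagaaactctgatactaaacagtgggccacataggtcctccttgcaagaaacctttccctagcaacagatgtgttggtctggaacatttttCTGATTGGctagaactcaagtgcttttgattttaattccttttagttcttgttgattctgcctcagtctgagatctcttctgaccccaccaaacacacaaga

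The windows lie at chr20:4576807-4577106 on the plus strand for *RT1-Ba*, at chr20:4604069-4604368 on the minus strand for *RT1-Bb*, and at chr20:4515165-4515464 on the plus strand for *RT1-Da*. The Y box ends 38, 56 and 44 bases before the start of *RT1-Ba*, *RT1-Bb* and *RT1-Da*. It was found in 1172 of the 33469 promoter windows (3.5%), and these letters were not in the *Cd74* window. The core of the antioxidant response element, TGACNNNGC on either strand, is in 12.1% of all windows and was not found in those of *Akr1b8*, *Slc40a1* or *Gpnmb*. *Hmox1* was not searched.

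**Figure D5:**
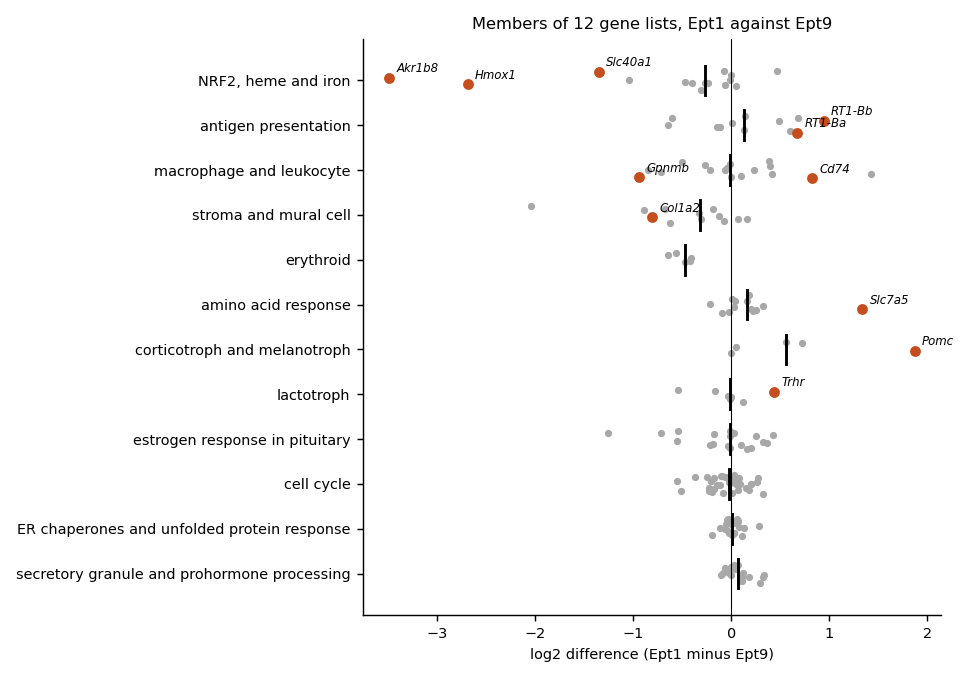
Difference in mean log2(signal + 16), Ept1 minus Ept9 (x axis), of each measured member of 12 gene lists (y axis), read from the brightest probe set of the gene. Orange points with a name are called, grey points are not, and black bars are list medians. The list of NRF2, heme and iron genes reaches -3.49, all 5 erythroid genes lie below 0, and the cell cycle and chaperone genes cluster around 0.

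Other called genes lay outside these groups. *Slc7a5* encodes LAT1, the carrier of large neutral amino acids, and read 755, 589 and 636 in Ept1 and 264, 260 and 229 in Ept9 (1.34 ± 0.13 (SE), adjusted p = 0.000694). It was the only one of 13 genes of the amino acid response to be called, and *Asns* (-0.22), *Slc3a2*, the partner chain of LAT1 (0.01), *Psat1* (0.25) and *Chac1* (0.22) did not pass. *Mal2*, a protein of membrane transport, read 407, 367 and 578 against 52.0, 32.7 and 2.3 in 1 probe set (3.54 ± 0.43 (SE), adjusted p = 0.00348), while its brighter probe set gave -0.02 and read 5000 in Ept1 and 5076 in Ept9. *Plac8* was higher in Ept1 by 1.12 ± 0.18 (SE), and lost its call in 4 of the 6 fits that left out 1 array. *Trhr*, the receptor for thyrotropin-releasing hormone on lactotrophs and thyrotrophs, was the only called gene of 7 in the lactotroph list. It was also the only gene called of 6 in the thyrotroph list, where *Thrb*, a thyroid hormone receptor, gave 0.15 in its brightest probe set (adjusted p = 0.408) and 0.71 in a dimmer one (adjusted p = 0.0176). *Trhr* read 4298, 3399 and 3491 in Ept1 and 2680, 2750 and 2781 in Ept9 (0.44 ± 0.08 (SE), adjusted p = 0.0439), and no fit with an array left out called it.

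Higher in Ept9 were *Ifitm2*, an interferon-induced membrane protein (-1.53 ± 0.17 (SE), adjusted p = 0.00218), with Ept2 (3206) and Ept6 (2527) at the Ept9 level, and *Col1a2*, a chain of type I collagen. *Col1a2* read 2069, 1518 and 1741 in Ept1 and 3079, 2979 and 3258 in Ept9 (-0.81 ± 0.10 (SE), adjusted p = 0.00319), and its second probe set gave the same -0.81. No Ept1 array reached the Ept9 range in *Col1a2*. It was the only one called of 12 genes of stroma and mural cells, whose median was -0.32 with 10 of 12 estimates lower in Ept1. The summed signal of that list was 2731 to 3856 in Ept1 and 4662 to 6566 in Ept9. *Col1a2* makes up a large part of this sum, which thus repeats its own difference, and the list was not summed without it. *Tagln*, a smooth muscle gene, had the widest estimate of that list (-2.04, adjusted p = 0.237) and rested on the 3rd Ept9 array, at 1611 against 335 and 197 in the others.

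*Ier2*, an immediate early gene (-0.88 ± 0.11 (SE), adjusted p = 0.00398), was the only one called of 15 such genes. *Tmed9* (-1.64), *Swi5* (-1.58) and *Anp32a* (-1.24) had Ept6 at or near the level of Ept9 and Ept2 at that of Ept1, and the brighter probe set of *Tmed9* gave -0.12 without a call. *Zfp90*, at 5.8 to 13.7 against 63.2 to 73.3, and *Fes*, at 64.7 to 107 against 7.3 to 7.5, were dim in both lines. Neither was called in any fit that left out 1 array, and *Zfp90* read 105.1, 15.9 and 8.3 in Ept2.

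*Nog*, described with chromosome 10, was the only gene called of 20 in the list of TGF-beta, BMP and activin genes. Several lists gave no call. None of 39 cell cycle genes was called and their median difference was -0.02. *Mki67*, which marks dividing cells, read 618 ± 61.2 (SD, n = 3) in Ept1 and 613 ± 25.95 (SD, n = 3) in Ept9. None of 19 estrogen response genes was called (median -0.01): *Gal*, which encodes galanin, differed by -0.02 ± 0.05 (SE) and *Pgr*, the progesterone receptor, by -0.01 ± 0.09 (SE). *Vip*, vasoactive intestinal peptide, had the widest estimate of these at -1.26 ± 0.29 (SE), with signals of 1463, 959 and 2594 in Ept1 and 4528, 2738 and 4096 in Ept9. Its groups did not overlap but the difference did not pass (adjusted p = 0.102). The 19 genes of chaperones and the unfolded protein response (median 0.00), the 17 of secretory granules and prohormone processing (0.07), the 12 of apoptosis (-0.05) and the 12 of endothelium (-0.10) held no call either. With 3 arrays per line a small difference in these genes can be missed.

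Of the called genes read by more than 1 probe set, 100 other probe sets were not called themselves, and 78 of these differed in the same direction as the called one. Among the 81 that were above the 40th percentile of signal this was 67 (82.7%), with 12 of 16 on chromosome 10 and 52 of 62 on chromosomes other than 6 and 10. *Ddx5*, *Stat3* and *Nfe2l1* on chromosome 10 and *Mal2* on chromosome 7 are among the genes with a probe set in the opposite direction. The sequences that these probe sets match were not analysed here.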

How the data were processed

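RNA of anterior pituitary glands was hybridised to Affymetrix Rat 230 2.0 arrays, 1 per sample. The authors deposited linear intensity values for 31099 probe sets, scaled to a common trimmed mean of 500.18 to 500.19 (2% left out at each end). Software and background correction: not given in the sources used here. From the deposited values log2(signal + 16) was computed without further scaling or filter, 57 control probe sets were excluded, and the comparison between the lines was made with limma 3.58.1 in R 4.3.3 (lmFit, eBayes with a variance trend, 6 arrays, Benjamini-Hochberg adjustment over 31042 probe sets, threshold 0.05). The tests were tested on simulated data. The pseudocount makes the differences of dim genes too small. For arrays, their number limits the precision.

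The 2 lines compared, the gene lists and named genes, and the variance trend, were chosen with earlier results of these data known, among them that the trend raises the number of calls. Gene names came from the platform annotation (20826 tested probe sets with 1 symbol, 436 with several, 9780 with none), chromosomes and promoters from RefSeq GRCr8. Lists were read from the brightest probe set of each gene. Named were the 15 largest called differences per direction, every called gene of chromosomes 6 and 10, called list members and the first 4 genes of each list, of which part is printed. Genes named for their spread (*Tagln*, *Vip*, *Lgals3*, *Csf1r*, *Ctss* and others) were chosen after their values were seen. Replicate numbers did not pair the samples (correlations of deviations 0.006 to 0.013). The alternatives changed the pseudocount (1 or 64), the scaling (quantile, median centring), the filter on dim probe sets (40th or 60th percentile), the trend, and added array weights, a replicate block, all 12 arrays, a *Gapdh* covariate, an ordinary model and leaving out each array. A robust trend was added after seeing the data.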

Additional observations from a re-analysis of the deposited data

How the results depend on the processing

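The number of called probe sets (211, with 67 higher in Ept1 and 144 higher in Ept9) moved by over 1.5 times in several fits. It was 380 (147 and 233) with a filter at the 40th percentile, 412 (166 and 246) at the 60th, 4 (1 and 3) without the variance trend, 29 (9 and 20) with the 40th percentile filter and no trend, 102 (25 and 77) with the *Gapdh* covariate and 4 (3 and 1) in the ordinary model, and the count higher in Ept1 was 41 with all 12 arrays in the fit. Leaving out 1 array gave 89 to 113 calls, 23 to 34 higher in Ept1 and 65 to 87 higher in Ept9. The share of called genes on chromosome 10 (24.4%) was 17.3% and 15.2% with those filters, 100% (2 of 2 genes) without trend and 45% (9 of 20) with filter and no trend, and that on chromosome 6 (4.49%) was 0% without trend and in the ordinary model and 10% with filter and no trend. The share of chromosome 10 calls with Ept2 and Ept6 on the side of Ept1 (90.2%) was 100% without trend (2 of 2) and in the ordinary model (1 of 1). The other pseudocounts, normalizations and array weights, and the robust trend (250 calls), kept the count within 1.5 times. Of 75 called probe sets of named genes 36 kept their call whichever array was left out, and 13 lost it in every such fit. No difference changed sign in these fits. Where the lines do not overlap this is fixed in advance, except with quantile normalization, median centring and the *Gapdh* covariate. Among the fits that left out 1 array, the count was lowest without Ept9 replicate 3. With the replicate number as a block 213 probe sets were called (58 and 155), 179 of them shared with the main result, which was the only use made of the numbers, since they did not pair the samples. Of 483 list medians under the alternatives, 445 moved by less than the spread between arrays. This count includes alternatives that cannot move a median. A change of the variance model, all 12 arrays or the replicate block leaves the differences as they are. Depth is not defined for these arrays, and 7 of the 211 calls lie under the 40th percentile of signal. The causes of these changes were not tested.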

Other observations

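Some called genes outside the lists and the rule for named genes, chosen after their values were seen, were higher in Ept9. *Mzb1*, a chaperone of plasma cells, had a mean signal of 1050 in Ept1 and 2187 in Ept9 (log2 difference -1.04, adjusted p = 0.000348). *Emp3*, a membrane protein, gave 1419 and 2638 (-0.89, adjusted p = 0.000312), and *Pcolce*, which aids the processing of collagen, 4216 and 6323 (-0.58, adjusted p = 0.00056). *Des*, the muscle intermediate filament desmin, differed by -1.07 (adjusted p = 0.0159). *Psap*, the precursor of the saposins, was at 3805 and 5991 (-0.65, adjusted p = 0.00175), and *Creg1* was called in 2 probe sets (-0.87 and -0.71). *Pgd*, an enzyme of the pentose phosphate pathway, stood at -0.55 (adjusted p = 0.0251). *RT1-DMb*, which helps to load peptides on MHC class II molecules, was higher in Ept1, at 863 against 638 (0.43, adjusted p = 0.0449).

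Unnamed probe sets took part in the largest differences. Of the 211 called probe sets 42 have no gene symbol and 6 have several. Of the 4 probe sets called with 1 common variance, those other than *Ddx5* and *Serpinf1* have no gene symbol, and both were higher in Ept9, by -1.99 and -2.05.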
